A study of Mus musculus with 15 samples.

Results

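Expression of 10 marker genes of hepatic stellate cells, and of the myofibroblasts that arise in scarring liver, was described: Acta2, Tagln, Des, Pdgfra, Pdgfrb, Reln, Cygb, Vim, Colec11 and Rgs5. They were chosen by name, as genes commonly used to mark these cells, with no threshold on their values. Earlier results of these data were known when they were chosen. The array annotation gave 18 of 22690 probe sets to 9 of the 10 genes. No probe set was annotated to Colec11, which is not analysed here. Livers were measured in mice of 16 months. The controls were the livers of 3 mice heterozygous for the Mdr2 knockout. The other samples came from 6 mice homozygous for the knockout, which gave 6 non-tumorous livers and, from 4 of these mice, 6 tumours. The number of a tumour is that of its mouse: mice 3 and 4 gave 1 tumour each, and mice 5 and 6 gave 2 each, called 5-1, 5-2, 6-1 and 6-2. Mdr2 is the older name of Abcb4, the hepatocyte transporter that moves phosphatidylcholine into bile. The controls carry 1 knockout allele too, so no wild-type liver is compared here.

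Hepatic stellate cells lie between the sinusoidal endothelium and the hepatocytes, where in healthy liver they store vitamin A and make little matrix. In chronic injury they take up signals of platelet-derived growth factor (PDGF) and transforming growth factor beta, multiply, gain contractile fibres and lay down collagen. Fibroblasts around the portal tract can become myofibroblasts as well, above all when bile flow is disturbed, and smooth muscle cells and pericytes of vessels share many of the same markers. No single marker is therefore private to stellate cells in whole liver.

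In non-tumorous knockout liver, Pdgfrb, the PDGF receptor beta chain, rose 2.85-fold over heterozygous liver, and it was the only one of the 9 genes to pass the test across all genes. Cygb and Vim were above every control in all 6 knockout livers without passing it. Acta2 and Tagln, the contractile markers, did not pass it either, and their highest signals came from 1 liver, number 3. In tumours none of the 9 genes passed the test, either against heterozygous liver or against knockout liver. Reln had the largest difference between tumour and knockout liver and was low in 3 of 6 tumours. The probe sets used for the genes were 1436970_a_at for Pdgfrb, 1421917_at for Pdgfra, 1450641_at for Vim, 1426732_at for Des, 1423630_at for Cygb, 1449465_at for Reln, 1416454_s_at for Acta2, 1423505_at for Tagln and 1417466_at for Rgs5, the brightest of each gene. All values are signals in arbitrary units, and no gene's signal is set against that of another gene.

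**Figure D1:**
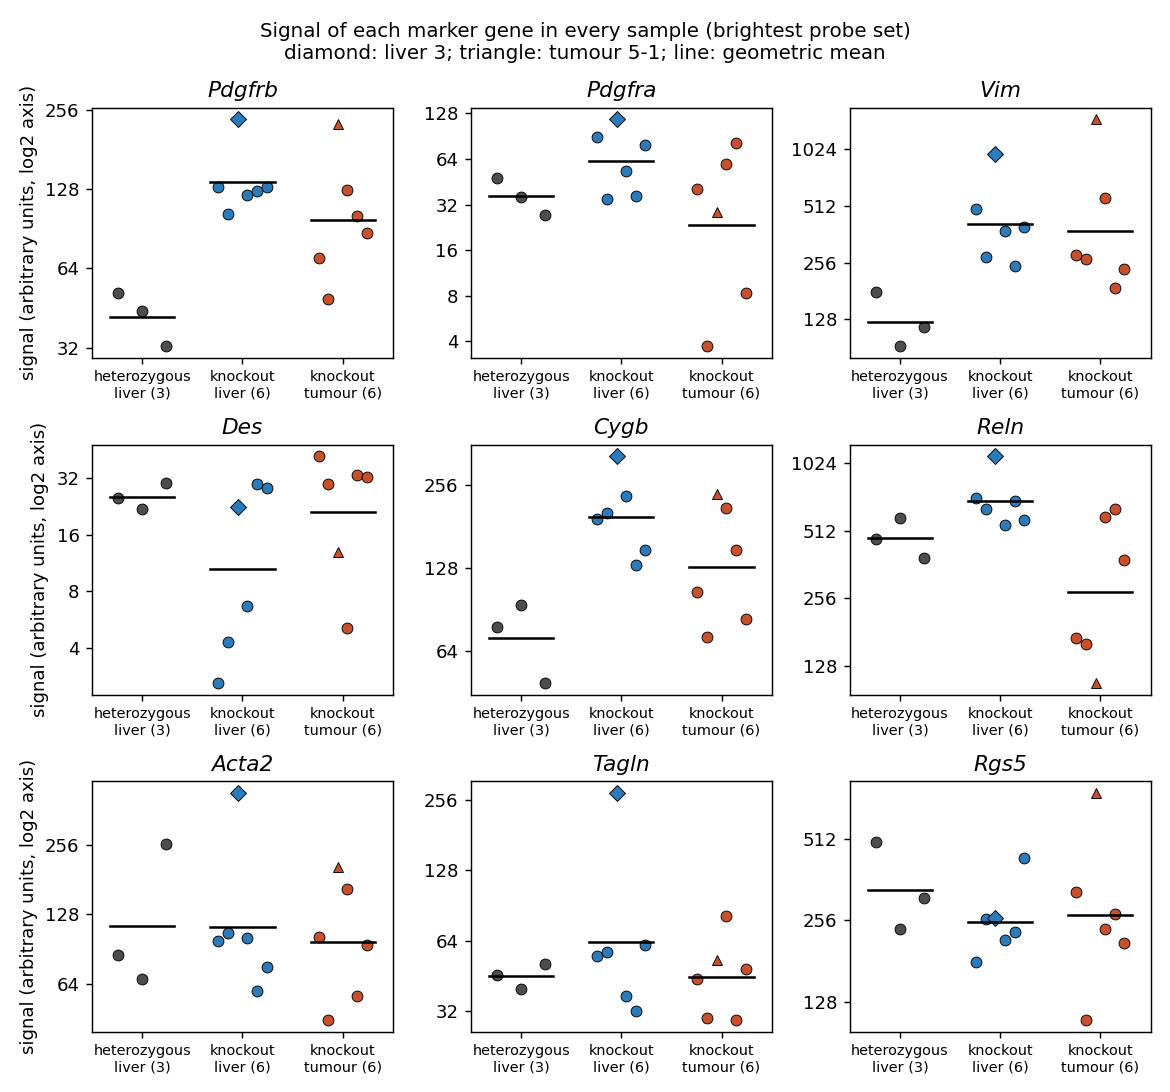
Signal of the brightest probe set of each of the 9 marker genes (vertical log2 axis, arbitrary units) in the 3 heterozygous livers, 6 non-tumorous knockout livers and 6 knockout tumours; each point is 1 sample and each line the geometric mean of a group. All 6 knockout livers sit above all 3 controls for Pdgfrb, Cygb and Vim, and liver 3 (diamond) is the highest liver for Acta2, at 433.7, and for Tagln, at 273.6.

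As a check of the labels, Abcb4 was read at 778.9 to 1006.4 in control liver and 177.4 to 305.7 in knockout liver, without overlap, and at 122.5 to 681.1 in tumour. The median signal of an array lay between 35.8 and 51.2. A sign of RNA quality, the actin control probe sets' signal at the 3' end over that at the 5' end, was between 2.55 and 3.37 in the controls, 1.74 and 2.74 in the knockout livers and 1.51 and 2.06 in the tumours. It moved with the groups, and its part in the results below was not tested other than as a term in the model. The summed signal of 12 hepatocyte markers lay between 88305.3 and 133711 in every sample, so all samples held liver tissue.

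The receptors are described first. Pdgfrb transmits the PDGF signal that drives stellate cells to divide. Its signal was 51.6, 44.0 and 32.3 in controls 1, 2 and 3. In the knockout livers it was lowest at 103.4 in liver 2, had a median of 128.05 and was highest at 236.9 in liver 3. The groups did not overlap, and 5 of the 6 livers lay close together. The log2 change was 1.51 ± 0.34 (SE, 6 livers against 3 controls), with an adjusted p of 0.0292 in limma's moderated test over 9535 genes. In whole liver, more cells that make a transcript and more of it in each cell cannot be told apart, and the same holds for each gene below.

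Pdgfrb was 1 of 9 marker genes called higher in knockout liver, against 1.36% of all genes tested (130 of 9535). Its call rested on every control: leaving out control 1, 2 or 3 gave an adjusted p of 0.0901, 0.107 or 0.170. It was lost as well without liver 1, 3, 4 or 6, at an adjusted p between 0.0511 and 0.0693, while the log2 change stayed between 1.36 and 1.63 whichever array was left out. With the actin ratio in the model the change was 1.32 (adjusted p = 0.277).

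In tumours the Pdgfrb signal was lowest at 48.9 in tumour 4, had a median of 94.4 and was highest at 226.9 in tumour 5-1. Only tumour 4 reached down into the range of the controls. The log2 change against the controls was 1.08 ± 0.33 (SE), with an adjusted p of 0.0601 in limma. It was 1.17 without tumour 3 (adjusted p = 0.0455) and 1.26 without tumour 4 (adjusted p = 0.0170), and centring the arrays on their medians gave 1.06 (adjusted p = 0.0359). A second, dimmer Pdgfrb probe set, 1417148_at, read 5.1 to 51.9 in the controls, with a median of 10.5, and 19.3 to 116.3 in the knockout livers, which overlapped. Its log2 change in knockout liver was 1.24 ± 0.65 (SE, adjusted p = 0.379 in limma), and the mean over both probe sets gave 1.38 (adjusted p = 0.132).

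Pdgfra, the alpha chain, binds more forms of PDGF and marks resting stellate cells and fibroblasts. Its signal was 48.0, 36.1 and 27.4 in the controls. In knockout livers it ran from 34.7 in liver 2 through a median of 65.85 to 117.6 in liver 3, and in tumours from 3.7 in tumour 4 through 34.4 to 82.0 in tumour 6-1. All 3 groups overlapped, and the tumours spread most. The log2 change was 0.66 ± 0.51 in knockout liver (SE, adjusted p = 0.581 in limma) and -0.29 ± 0.51 in tumours (adjusted p = 0.788). The second Pdgfra probe set, 1421916_at, was above the 40th percentile of the array on 0 of 3 control arrays, on 3 of 6 liver arrays and on 1 of 6 tumour arrays, and so passed the filter mainly through the livers.

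The intermediate filaments come next. Vim encodes vimentin, the filament of mesenchymal cells in general, found in stellate cells and fibroblasts as well as in endothelium and leukocytes. Its signal was 179.6, 92.0 and 117.0 in the controls. The knockout livers ran from 245.7 in liver 5 through a median of 386.6 to 968.1 in liver 3, and the tumours from 188.0 in tumour 6-1 through 275.1 to 1482.3 in tumour 5-1. Every knockout sample was above every control, while livers and tumours overlapped widely.

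The log2 change of Vim was 1.65 ± 0.51 in knockout liver (SE, adjusted p = 0.112 in limma) and 1.53 ± 0.51 in tumours (SE, adjusted p = 0.0800). Without tumour 5-1, whose signal widens the spread that all groups share, the liver change of 1.65 had an adjusted p of 0.0197. Vim, Pdgfrb and Cygb were the 3 of 9 marker genes above all controls in the knockout livers, against 8% of all genes. Vim alone was above all controls in the tumours, against 5.3% of all genes.

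Vim had 3 probe sets, which share the gene and are not replicates. In tumours 1438118_x_at rose by 1.66 ± 0.44 and 1456292_a_at by 1.77 ± 0.49 (log2, SE), with adjusted p of 0.0318 and 0.0377 in limma over 16139 probe sets, while 1450641_at, the brightest, had a log2 change of 1.53 with an adjusted p of 0.0793. Of the 16 probe sets of the marker genes that passed the filter, these 2 were called higher in tumours, against 3.89% of all probe sets. In knockout liver the 2 called were those of Cygb and Pdgfrb, against 1.46%. The mean over the 3 Vim probe sets changed by 1.65 in tumours (adjusted p = 0.0480).

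**Figure D2:**
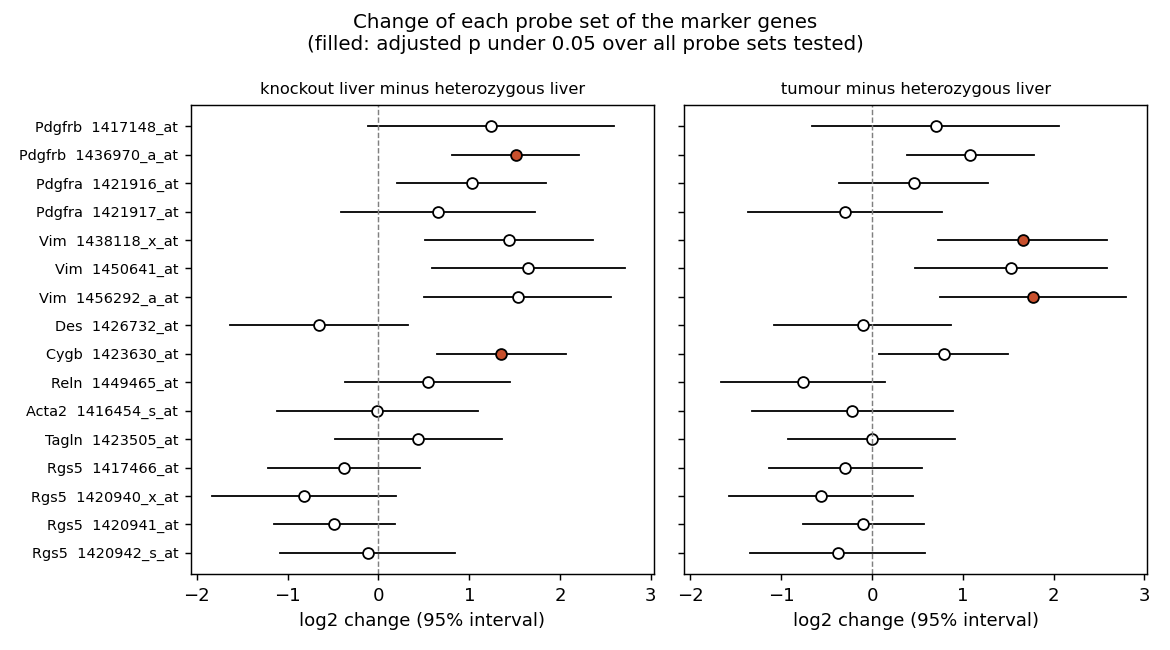
Log2 change of the 16 probe sets of the marker genes that passed the filter, with 95% intervals, for knockout liver (left) and tumour (right) against heterozygous liver; filled points have an adjusted p under 0.05 over 16139 probe sets. The 3 Vim probe sets lie close together in both panels, and all 4 Rgs5 probe sets lie below 0.

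Macrophages make vimentin as well. The summed signal of 15 macrophage markers was 2863 to 3039.7 in the controls, 4084.2 to 6586.3 in the knockout livers and 1606.1 to 9233.6 in the tumours, and none of these markers was dim on every array. Within the tumours the sum was highest in tumour 6-2, next in tumour 5-1, at 8501.4, and lowest in tumour 4. Vim was 235.9, 1482.3 and 268.5 in these tumours. Within the knockout livers the sum was highest in liver 6 and next in liver 3, at 6223.5, where Vim was 396.3 and 968.1. Of 13 macrophage markers tested 2 rose in knockout liver, Lyz2 and Cd68, and 5 rose in tumours, against 1.36% and 3.93% of all genes. Over the alternatives these counts ran from 0 to 8 and from 0 to 7. The part of such cells in the Vim signal was not tested.

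Des encodes desmin, the muscle type filament that marks stellate cells and vascular smooth muscle in rodents. It was hardly measured here. Its brighter probe set was above the 40th percentile of the array on 1 of 3 control arrays, 2 of 6 liver arrays and 4 of 6 tumour arrays. Signals were 25.1, 21.9 and 29.9 in the controls, 2.6 to 29.5 in the livers with a median of 14.55, and 5.1 to 41.8 in the tumours with a median of 31.0. The groups overlapped, with log2 changes of -0.65 ± 0.47 in knockout liver (SE, adjusted p = 0.537 in limma) and -0.10 ± 0.47 in tumours (adjusted p = 0.929). The other Des probe set, 1426731_at, and the second Acta2 probe set, 1456658_at, did not pass the filter. Their mean log2 values were 3.87 and 3.94 in the controls, 4.57 and 4.45 in the knockout livers and 4.74 and 4.56 in the tumours. Both were near background, except for 1426731_at in liver 1. There it read 50.7, at percentile 53.5 of the array, while the Des probe set used read 2.6. The means of both ran higher in the knockout samples, unlike those of the probe sets used for these genes. These differences were not tested.

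The genes tied most closely to the stellate cell itself follow. Cygb encodes cytoglobin, an oxygen-binding globin which in liver is found in stellate cells. Its signal was 78.2, 94.0 and 48.9 in the controls. In knockout livers it ran from 131.3 in liver 5 through a median of 197.0 to 324.9 in liver 3, so that no liver overlapped with a control. In tumours it ran from 72.0 in tumour 4 through 126.1 to 235.8 in tumour 5-1, and tumours 4 and 6-2 lay within the controls' range. The log2 change was 1.35 ± 0.34 in knockout liver (SE, 2.55-fold), with an adjusted p of 0.0513 in limma, just above the threshold of 0.05, and 0.0478 when every probe set was tested on its own. With 1 array left out the adjusted p lay between 0.0226 (without tumour 5-1) and 0.260 (without control 3). In tumours it was 0.79 ± 0.34 (SE, adjusted p = 0.176).

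Reln encodes reelin, a large secreted glycoprotein best known from the brain, which in liver is made by stellate cells. Its signal was 470.7, 583.1 and 386.3 in the controls. The knockout livers were at 720.3, 639.4, 1105.8, 545.7, 693.4 and 573.7 in livers 1 to 6. Liver 3 was the highest, livers 4 and 6 were below control 2, and the log2 change was 0.54 ± 0.44 (SE, adjusted p = 0.593 in limma).

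The tumours split in Reln. It was 170.8 in tumour 3, 159.0 in tumour 4 and 106.5 in tumour 5-1, far below every liver of either genotype. It was 591.9 in tumour 5-2, 639.1 in tumour 6-1 and 379.1 in tumour 6-2, the last just under the lowest control. Tumours 5-1 and 5-2 came from 1 mouse. The log2 change against knockout liver was -1.30 ± 0.36 (SE, adjusted p = 0.187 in limma), the largest of the 9 genes in that comparison. It was -1.48 with the 2 tumours of a mouse averaged (adjusted p = 0.0207) and -1.54 without tumour 6-1 (adjusted p = 0.0448). Against the controls it was -0.76 ± 0.44 (adjusted p = 0.321).

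In the contractile genes single samples stood out. Acta2 encodes smooth muscle alpha actin, the usual stain for myofibroblasts, and Tagln encodes transgelin, an actin-binding protein of smooth muscle. The Acta2 signal was 85.3, 66.8 and 259.3 in the controls, so control 3 was higher than 5 of the 6 knockout livers and all 6 tumours. The knockout livers read 98.5, 106.0, 433.7, 101.2, 59.5 and 75.5 in livers 1 to 6, and the tumours ran from 44.2 in tumour 4 through a median of 98.15 to 206.2 in tumour 5-1. The log2 change was -0.01 ± 0.53 in knockout liver (SE, adjusted p = 0.996 in limma), with a 95% interval from -1.13 to 1.11. It was -0.38 without liver 3 and 0.54 without control 3.

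Tagln read 45.8, 39.8 and 51.2 in the controls. The knockout livers were at 55.3, 57.1, 273.6, 37.3, 32.0 and 61.4, and only liver 3 stood far from the controls. The tumours ran from 29.3 in tumour 6-1 through a median of 46.15 to 81.3 in tumour 5-2. The log2 change was 0.44 ± 0.44 in knockout liver (SE, adjusted p = 0.681 in limma), of which 0.05 was left without liver 3. In tumours it was 0.00 ± 0.44 (adjusted p = 0.997), with a 95% interval from -0.93 to 0.93.

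Rgs5 encodes a regulator of G protein signalling that marks pericytes and the mural cells of vessels. Its signal was 499.0, 237.9 and 310.7 in the controls. The knockout livers ran from 180.5 in liver 1 through a median of 245.2 to 434.0 in liver 6, and the tumours from 109.5 in tumour 4 through 254.8 to 756.7 in tumour 5-1. The groups overlapped. The log2 change was -0.38 ± 0.40 in knockout liver (SE, adjusted p = 0.697 in limma) and -0.29 ± 0.40 in tumours (adjusted p = 0.724). Its dimmer probe sets 1420940_x_at, 1420941_at and 1420942_s_at changed by -0.82, -0.48 and -0.12 in knockout liver (log2). In tumours they changed by -0.56, -0.10 and -0.38. None of the 4 Rgs5 probe sets was called in either comparison.

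**Figure D3:**
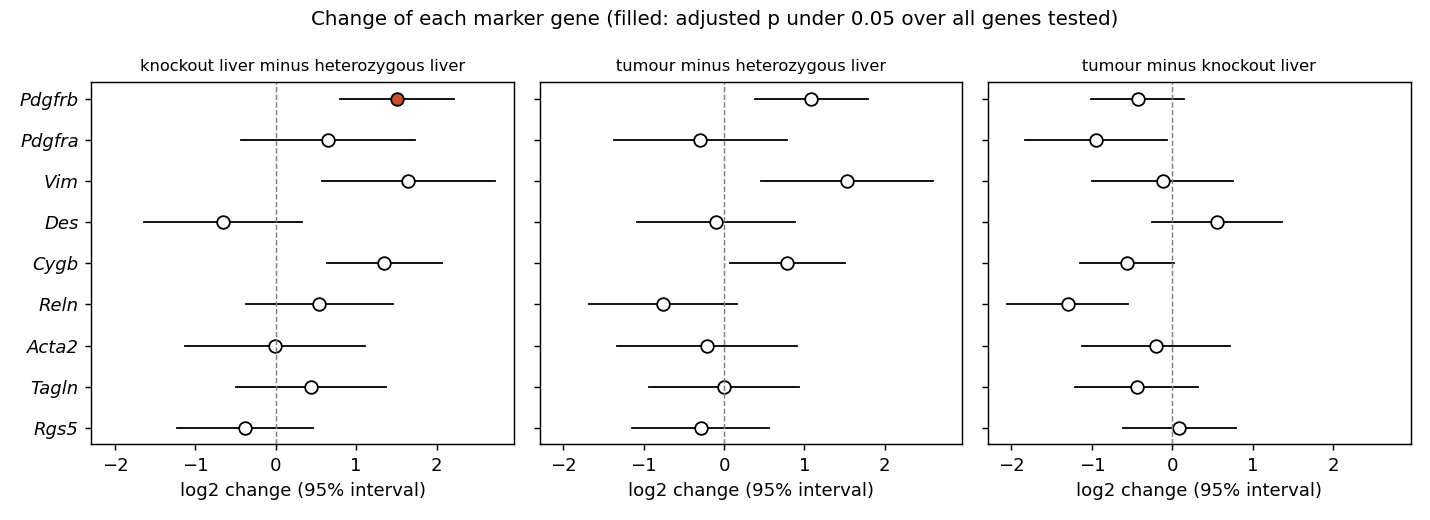
Log2 change (horizontal axis) of each of the 9 marker genes with its 95% interval in the 3 comparisons; the filled point, Pdgfrb in knockout liver, has an adjusted p under 0.05 over 9535 genes. The intervals of Pdgfrb, Cygb and Vim lie above 0 in both comparisons with heterozygous liver, and those of Reln and Pdgfra lie below 0 between tumour and knockout liver.

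Over the 9 genes the median log2 change was 0.54 in knockout liver and -0.10 in tumours against heterozygous liver, beside -0.02 over all genes in both comparisons. These comparisons share their 3 controls. The tumour median was 0.01 without tumour 4, 0.07 without control 3 and 0.33 with the actin ratio in the model. Between tumour and knockout liver the median was -0.43, beside 0.01 over all genes, and -0.05 without liver 3. There 0 of the 9 genes were called in limma, against 0.136% of all genes (13 of 9535), and 2 of the 9, Reln and Pdgfra, had an unadjusted p under 0.05, as did 10.3% of all genes. Of tumours against heterozygous liver 0 of the 9 were called in limma, against 3.93% of all genes higher and 2.94% lower. There 3 of the 9, Pdgfrb, Vim and Cygb, had an unadjusted p under 0.05, as did 22.4% of all genes.

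The tumours differed in how they stood to the liver of their own mouse. Tumours 5-1 and 5-2 were above their own liver for 6 and 7 of the 9 genes. Tumours 3, 4, 6-1 and 6-2 were above it for 2, 1, 3 and 2. Vim was higher than in the mouse's own liver by 2.55 in tumour 5-1 and by 1.17 in tumour 5-2 (log2), whereas it was lower in the other 4, with differences of -1.75, -0.48, -1.04 and -0.73 in tumours 3, 4, 6-1 and 6-2. Liver 5 had the lowest signal of the 6 livers for Vim, Acta2, Tagln and Cygb, and liver 3 the highest. Both tumours of mouse 5 are set against liver 5. The 9 genes are not independent, and such counts over all genes were not made. Reln was lower than in the own liver in 5 of 6 tumours, from -2.63 in tumour 3 to -0.23 in tumour 5-2, and tumour 6-1 was 0.15 above it. In tumours 3 and 4 the difference from the own liver was -1.64 and -1.17 for Pdgfrb and -1.56 and -1.57 for Cygb.

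**Figure D4:**
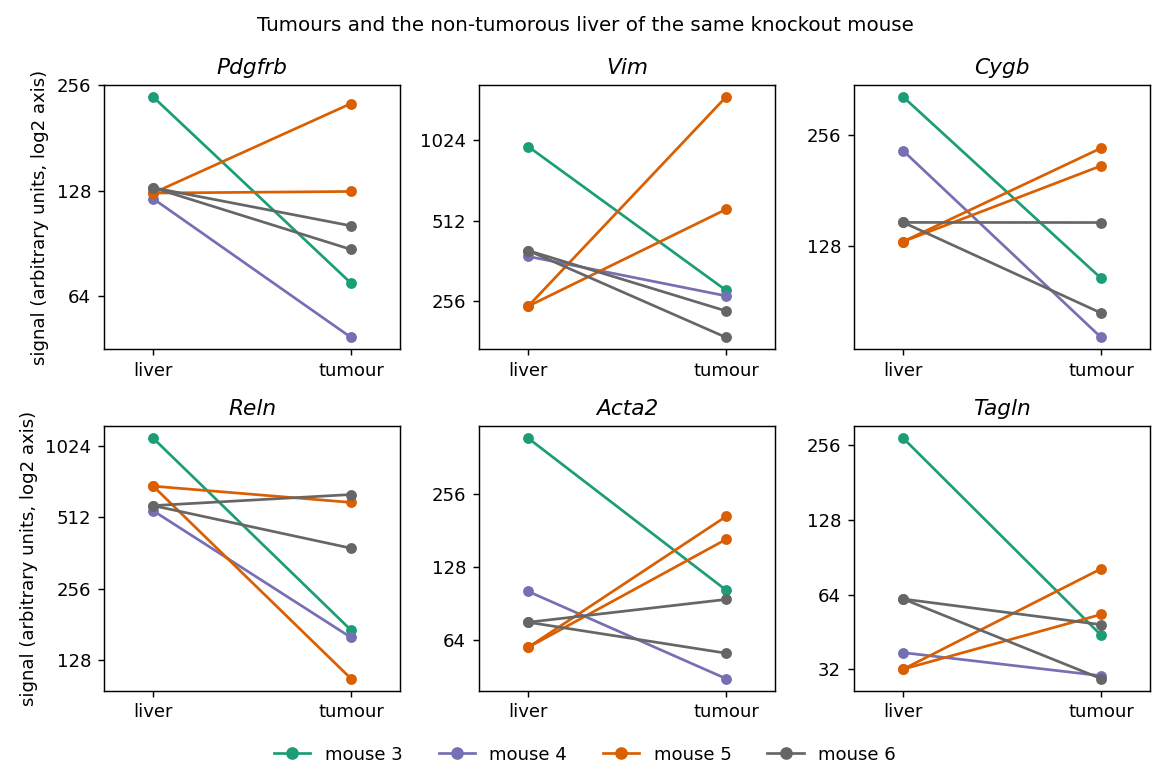
Signal (vertical log2 axis, arbitrary units) of 6 marker genes in the non-tumorous liver and the tumours of the 4 mice that gave both, with a line from each liver to each tumour of the same mouse; mice 5 and 6 gave 2 tumours each. For Vim, Cygb, Acta2 and Tagln the lines of mouse 5 go up from liver to tumour while that of mouse 3 goes down.

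Genes that go with these markers in stellate cells and myofibroblasts were counted in lists. Of all genes 1.36% rose in knockout liver and 3.93% in tumours against heterozygous liver. With the actin ratio in the model 0 genes of any list were called in either of these comparisons. Of 23 tested matrix genes of myofibroblasts 3 rose in knockout liver and 0 fell, with a median log2 change of 0.97. The 3 became 0 without any 1 control, without liver 1, 2, 3, 4 or 6 or with no filter, and 13 when the tumours were left out of the fit. Lum, a collagen-binding proteoglycan, rose by 1.95 ± 0.48 and Col5a2, a fibrillar collagen chain, by 1.83 ± 0.44 (SE, adjusted p = 0.0472 and 0.0442 in limma). In tumours 4 of the 23 rose against 3.93% of all genes, among them Col4a1, a basement membrane collagen, by 2.88 ± 0.47 and Col1a1, the main scar collagen, by 2.64 ± 0.62 (SE, adjusted p = 0.00175 and 0.0156). The median there was 0.48. These 4 became 1 or 2 without any 1 control. The summed matrix signal was 5150.7 to 5500.4 in the controls, 7066.6 to 10932.8 in the knockout livers, with liver 3 the highest, and 5452.7 to 14280.9 in the tumours, with tumour 5-1 the highest.

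Of 17 contractile and smooth muscle genes 1 rose in knockout liver and 2 in tumours, and 0 fell, against 1.36% and 3.93% of all genes higher. The 2 became 1 without tumour 5-2 or any 1 control, and over the alternatives the counts ran from 0 to 3 and from 0 to 2. Tpm1, a tropomyosin that stabilises actin filaments, rose by 1.32 ± 0.23 in knockout liver and by 1.16 ± 0.23 in tumours (SE, adjusted p = 0.00713 and 0.00599 in limma), and Tpm4 rose by 1.20 ± 0.33 in tumours (adjusted p = 0.0360). Cnn1, Lmod1 and Myocd, which mark mature smooth muscle, were dim on every array.

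Of 14 ligands, receptors and responses of the PDGF and transforming growth factor beta pathways 1 rose in each comparison with heterozygous liver, against 1.36% and 3.93% of all genes. Over the alternatives these counts ran from 0 to 5 and from 0 to 3, with 0 in knockout liver without control 1 or 3. The gene was Tgfbr2, the ligand-binding receptor of transforming growth factor beta, with log2 changes of 1.68 ± 0.30 in knockout liver and 1.94 ± 0.29 in tumours (SE, adjusted p = 0.00755 and 0.00123 in limma). The median of the list was 0.70 in knockout liver and 0.54 in tumours.

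Of 11 genes of resting stellate cells 0 were called in knockout liver. There 3 had an unadjusted p under 0.05, 1 higher and 2 lower, against 15.6% of all genes. The list's median log2 change there was -0.001, with 5 of the 11 genes above 0. The largest difference there was 1.26 ± 0.45 for Hgf, hepatocyte growth factor (SE, adjusted p = 0.178 in limma). When the tumours were left out of the fit 2 of the list rose and 2 fell, as did 645 and 349 of 9535 genes. In tumours 3 of the 11 fell against 2.94% of all genes. Angptl6, an angiopoietin-like secreted protein, fell by 1.62 on the log2 scale and Ecm1, an extracellular matrix protein, by 1.26 (adjusted p = 0.0126 and 0.0155). The 3 became 0 without control 1 or 2 and 1 without control 3. The signal was also summed over the 14 genes of this list on the array, those left out by the filter included. The sum was 1189.9 to 1481.3 in the controls, 920.5 to 2140.8 in the knockout livers and 344.6 to 1169.1 in the tumours. The sum of every tumour was thus below that of every control.

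Markers of other mural and fibroblast types were counted in the same way. Of 8 pericyte genes 0 were called in knockout liver. There 2 had an unadjusted p under 0.05, against 15.6% of all genes. The largest difference there was -0.76 ± 0.27 for Heyl, a transcription factor downstream of Notch (SE, adjusted p = 0.165 in limma). In tumours 1 of the 8 fell, against 2.94% of all genes. It was Nr2f2, a nuclear receptor of veins and mesenchyme, which fell by 1.18 (adjusted p = 0.00337). The list as a whole did not go that way, with a median log2 change of 0.22 and 6 of the 8 genes above 0. Of 8 genes of portal fibroblasts and mesothelium Entpd2, an ectonucleotidase of portal fibroblasts, rose by 1.48 ± 0.33 in knockout liver and by 1.66 ± 0.33 in tumours (SE, adjusted p = 0.0292 and 0.00599). In tumours 2 of these 8 rose and 1 fell, against 3.93% and 2.94% of all genes. Besides Entpd2, Cd34 rose by 2.09 ± 0.55, and Gas1 fell by 1.93 (adjusted p = 0.0296 and 0.0464). The median log2 change of the 8 was -0.24 in tumours, with 3 of them above 0. Which cells made the Cd34 signal was not tested. The call of the portal list in knockout liver was lost without liver 1, 2, 3, 4 or 6 or control 1 or 3, and its 2 rises in tumours became 0 or 1 without any 1 control. Between tumour and knockout liver 0 genes of these 6 lists were called in limma. At an unadjusted p under 0.05 there were 7 of the matrix genes, 3 higher and 4 lower in tumours. Those of the other lists were all lower in tumours. They were 4 of resting stellate cells, 2 each of the PDGF and portal fibroblast lists, 1 of the pericyte genes and 0 of the contractile genes. Of all genes 10.3% were under it, 411 higher and 574 lower.

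Markers of other cell types that share these samples were counted as well. Of 9 bile duct markers 1 rose in knockout liver, Cdh1 by 1.97, and 3 rose in tumours, among them Krt8 by 1.22 and Krt18 by 1.17, against 1.36% and 3.93% of all genes. Cdh1, Krt8 and Krt18 are not private to bile duct cells, so these calls do not single those cells out. Both counts ran from 0 to 3 over the alternatives, and that of the tumours was 0 without control 2 or 3. The summed signal of the 11 genes of the bile duct list on the array, tested or not and these genes among them, was 2171.3 to 3433.1 in the controls. It was 4105.3 to 7396.2 in the knockout livers and 3889.8 to 10513.4 in the tumours, so every knockout sample was above every control. Of 15 endothelial markers 0 were called in knockout liver and 1 rose in tumours, Emcn by 1.81. In knockout liver 2 of them had an unadjusted p under 0.05, near the 15.6% of all genes. Of 9 markers of T, NK and B cells 1 rose in tumours, Ptprc by 1.55, a gene that is not private to these cells among leukocytes. Of 12 hepatocyte markers 3 fell in tumours, against 2.94% of all genes, among them Tat, which fell by 1.76, and Cebpa, which fell by 0.65. In all tumours 8 of the 12 were below every control, as were 584 of 9535 genes. Of 2 tested markers of skeletal muscle and blood 0 were called in limma. In tumours 1 had an unadjusted p under 0.05, against 22.4% of all genes. The tumour counts of endothelial and of T, NK and B cell markers were 0 without any 1 control, and that of hepatocyte markers was 0 without control 2 or 3. The part of these cells in the marker signals was not tested.

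Likeness between genes was measured as the Pearson correlation of log2 signal over the 12 knockout samples with each group's mean taken out. These samples share mice, and 1 or 2 samples carry much of each value, so each correlation is given again over the 10 samples left without the 2 farthest from the marker's median. The genes most like Pdgfrb were Timp2 (0.954, then 0.895), Igfbp7 (0.952, then 0.947) and Col1a2 (0.945, then 0.820). Those most like Cygb were Med31 (0.945, then 0.908), Col3a1 (0.936, then 0.923) and Col1a2 (0.935, then 0.928). Col1a2 and Col3a1 are chains of fibrillar collagens.

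Those most like Vim were Septin7 (0.971, then 0.916), Bicc1 (0.963, then 0.960) and Ahnak (0.957, then 0.852). Those most like Acta2 were Col5a1 (0.920, then 0.817), Il1b (0.915, then 0.781) and Plscr3 (0.912, then 0.821). Those most like Tagln were Myl9 (0.925, then 0.837), Acta2 (0.894, then 0.713) and Timp3 (0.892, then 0.734). Myl9, the regulatory light chain of smooth muscle myosin, and Acta2 are both contractile genes, and Tagln is the only one of the 9 whose nearest genes held another of the 9.

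The remaining markers had other neighbours. For Reln these were Eps15 (0.902, then 0.824), Capn6 (0.897, then 0.940) and Nat8f2 (0.896, then 0.802). For Pdgfra they were Fgf22 (0.908, then 0.814), Pla2r1 (0.893, then 0.763) and Evx2 (0.865, then 0.778). For Des, near background, they were Atp6v1e2 (0.904, then 0.881), Lamtor4 (0.901, then 0.819) and Creld2 (0.901, then 0.841). For Rgs5 they were Sbno1 (0.951, then 0.924), C2 (0.907, then 0.493) and Khdc4 (0.901, then 0.716), so that the likeness to C2 rested on tumours 5-1 and 4.

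The promoters of Acta2 and of Myl9 are shown because both genes lay among the 3 most like Tagln and because smooth muscle genes are known to be switched on through the CArG box, the element bound by serum response factor. RefSeq promoters (GRCm38.p6) were found for 7 of the 10 marker genes. The box was searched as CC, then 6 bases that are A or T, then GG, with at most 1 of the 6 allowed to be C or G. Its reverse complement has the same form, so 1 strand covers both. The 250 bases before each annotated start are printed 5′ to 3′ on the gene's strand, with matches in capitals. Acta2 lies at chr19:34255374-34255623 on the minus strand and Myl9 at chr2:156775214-156775463 on the plus strand.
Acta2: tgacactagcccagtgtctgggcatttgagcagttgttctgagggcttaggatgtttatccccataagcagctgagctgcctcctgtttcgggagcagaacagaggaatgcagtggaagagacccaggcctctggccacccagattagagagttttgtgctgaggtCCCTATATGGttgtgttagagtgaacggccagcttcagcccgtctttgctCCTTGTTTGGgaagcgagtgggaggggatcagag
Myl9: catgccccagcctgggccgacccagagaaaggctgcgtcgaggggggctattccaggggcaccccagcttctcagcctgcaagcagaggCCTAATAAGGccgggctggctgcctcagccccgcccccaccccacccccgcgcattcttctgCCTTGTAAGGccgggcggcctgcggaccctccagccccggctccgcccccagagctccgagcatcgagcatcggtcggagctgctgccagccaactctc

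In the Acta2 window 2 matches began 84 and 34 bases before the start, each with 1 of the 6 central bases C or G. In the Myl9 window a match with all 6 bases A or T began 161 bases before the start, and one with 1 base C or G began 99 before it. Among all 32851 RefSeq promoters 8.59% held a match in the same 250 bases, and 1.47% held one with all 6 bases A or T. No match was found in the windows of Des, Pdgfra, Reln, Vim, Colec11 and Rgs5, which says only that these letters are not in those windows. A match is a description of the sequence, and binding was not measured.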

How the data were processed

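The deposited values are MAS5 signals, a linear intensity per probe set, per the submitters' processing notes. The version and settings are not given in the sources used here. The authors' arrays had been scaled: the trimmed means, with 2% left out at each end, lay between 148.7 and 149. The series text names another array than the table's 22690 probe sets point to, and probe sets were named through the annotation supplied with the values. Of these, 64 controls were left out, 20393 had 1 gene, 691 several and 1606 none listed.

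Signals were transformed as log2(signal + 9.1), where 9.1 is the 20th percentile of all signals, which understates the change of dim genes. Probe sets above an array's 40th percentile on at least 3 arrays were kept (16139), and the brightest stood for its gene (9535). "Dim" means below that percentile. One model over the 15 arrays was fitted in limma 3.58.1 under R 4.3.3, and duplicateCorrelation (statmod 1.5.0, consensus -0.0174) treated samples of 1 animal as a random block; p-values were adjusted by Benjamini-Hochberg over all genes. Calls have an adjusted p under 0.05. The mice are separate animals by their labels, but the 6 tumours come from 4 mice. The pairing of tumour and liver rests on the labels: samples of 1 mouse had correlations between -0.157 and 0.0852 once group means were taken out. The number of arrays limits the precision.

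The markers and lists were chosen with earlier results of these data known. All marker probe sets were named. From each list the text gives up to 2 largest rises and falls among called genes, or the largest difference where none was called, and for each marker the 3 genes most correlated with it, leaving out clones and gene models. Alternatives were other constants, filters, normalizations, summaries of probe sets, sample sets, blocks, a covariate and leaving out each array.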

Additional observations from a re-analysis of the deposited data

Results flagged for a closer look

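Liver 3 stood apart from the other 5 knockout livers in 3 of the 9 marker genes by Dixon's test on log2 signals at the 95% level. These were Acta2 at 433.7, Tagln at 273.6 and Pdgfrb at 236.9, where the gap to the next liver was 0.722, 0.720 and 0.723 of the whole range and the critical value for 6 samples is 0.625. Of the other 5 livers, the highest Acta2 signal was 106.0 in liver 2, the highest Tagln signal 61.4 in liver 6 and the highest Pdgfrb signal 130.6 in liver 6. The test was run on 18 groups, the 9 genes in livers and in tumours, and chance flags about 1 in 20 groups. The 3 results come from 1 sample and are not independent. Without liver 3 the log2 change in knockout liver was -0.38 for Acta2, 0.05 for Tagln and 1.36 for Pdgfrb (adjusted p = 0.0693 in limma for Pdgfrb). The actin 3' to 5' ratio of liver 3 was 2.37, within the range of the other livers, and its summed matrix signal of 10932.8 was the highest of the livers.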

How the results depend on the processing

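In knockout liver 1 marker gene was called, and 2 with a constant of 1, with the filter at the 60th percentile, after quantile normalization, with arrays centred on their medians or with every probe set tested. It was 3 with only the 2 groups compared or with the tumours of a mouse averaged, and 0 with the mean over probe sets or the actin ratio as a covariate. Leaving out 1 array gave 0 to 3. In tumours against heterozygous liver it was 0, then 1 after quantile normalization, median centring or the mean over probe sets, and 0 to 1 without 1 array. Between tumour and knockout liver it was 0, then 1 (Reln) with tumours averaged, and 0 to 1 without 1 array.

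With the replicate block, the animal as a fixed term in the 4 paired mice, 0 markers were called. There the change in log2 was -1.40 for Reln (adjusted p = 0.587 in limma) and -0.13 for Rgs5, the latter opposite in sign to the fit over all arrays. That fit called 0 of all genes, with 731 at an unadjusted p under 0.05. Of 364 single gene changes and medians under another setting, 338 kept their direction and side of the threshold (or, for a median, moved by less than its spread), 13 came to pass it, 2 no longer passed it and 11 turned sign. Of 450 with 1 array left out these were 411, 11, 7 and 20, and 1 median moved.

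Over all genes, 160 were called in knockout liver, 655 in tumours against heterozygous liver and 13 between tumour and knockout liver. With every probe set tested these were 293, 1026 and 20, with only the groups compared 994, 117 and 0, and with the covariate 21, 21 and 0. With tumours averaged, 350 were called in knockout liver and 49 between tumour and knockout liver. Without 1 array the counts ran from 34 to 289, from 216 to 781 and from 0 to 62.

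Signs that turned belonged to uncalled changes. In knockout liver these were Acta2 (0.011, median centring) and Des (0.20, covariate). In tumours against heterozygous liver they were Tagln (0.008 with the larger constant, 0.33 with the covariate), Pdgfra (0.082 with the mean over probe sets, 0.065 with the covariate) and Des (0.021 averaged, 1.12 with the covariate). Between tumour and knockout liver they were Vim (0.11, mean over probe sets) and Rgs5 (-0.034, averaged). Without 1 array, Acta2 ranged from -0.38 to 0.54 in knockout liver, from -0.57 to 0.34 in tumours against heterozygous liver and from -0.41 to 0.17 between tumour and knockout liver. Against heterozygous liver, tumours ranged from -0.15 to 0.10 in Tagln, from -0.55 to 0.01 in Pdgfra and from -0.23 to 0.14 in Des. Between tumour and knockout liver Vim ranged from -0.51 to 0.12 and Rgs5 from -0.21 to 0.34. The cause was not tested. Signals near background limit Des and the dimmer probe sets of Pdgfra and Pdgfrb.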
